A study of Homo sapiens with 54 samples.

Results

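The genes described here are 39 interferon-stimulated genes and nucleic-acid sensors, listed by name with earlier results of these data known and with no measured value in the rule, out of 19974 protein-coding genes. For each gene, the length covered by open-chromatin peaks was measured over the gene body with 10 kb flanks, with the presence of a peak within 1 kb of either gene end. The measurements come from bulk ATAC-seq, in which a transposase cuts and tags accessible DNA, of 2 human cancer lines, MDA-MB-231 from a breast tumour without hormone receptors and PC3 from a prostate tumour. The 6 groups were untreated MDA-MB-231, MDA-MB-231 that survived cisplatin taken 1 day and 10 days after the drug was removed, and the same 3 states of PC3. Cisplatin is a platinum drug that crosslinks DNA, and its dose and the length of exposure are not given in the sources used here. Each group had 3 biological replicates, each split into 3 samples before tagmentation, for 54 sequenced samples in all. Each biological replicate has 1 deposited peak list, 18 in all, and every group therefore has n = 3. Each line is a single cell line, so the spread is that between its replicates.

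Interferons are secreted proteins that cells release when sensors find nucleic acid in the wrong place. RIG-I-like receptors read double-stranded RNA in the cytosol, and cGAS reads cytosolic DNA and signals through STING. Interferon receptors then activate STAT2, which works with IRF9 at the interferon-stimulated response element (ISRE) in the promoters of interferon-stimulated genes. Many of the sensors are themselves induced by interferon, and damaged or misplaced DNA in drug-treated tumour cells is a known trigger of the DNA-sensing arm.

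The lists held from 82392 to 165535 peaks that covered from 54.36 to 82.3 Mb. They give no read counts, so depth is unknown. In both lines every treated list held more peaks than every untreated list. The lists of replicate 1 had a lower median peak width than the other lists of their group in 5 of 6 groups. The part of these differences in the results was not tested, beyond the scaling and the left-out lists given below. In bulk lists, a site that opened in some cells and one that opened further in every cell cannot be told apart. VIM, CAV1 and MSN, markers of mesenchymal-type cells, had a gene-end peak in all 18 lists, and so did the epithelial genes KRT8, KRT18 and EPCAM. The epithelial gene CDH1 had one in all 3 lists of each PC3 group and in no MDA-MB-231 group in all 3. Of 7 haematopoietic markers, 3 in each MDA-MB-231 group (CD3E, CD14 and SPI1) and 2 in each PC3 group (CD3E and SPI1) had a gene-end peak in all 3 lists. None of 4 endothelial markers had one in all 3 lists of any group.

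A promoter here is the RefSeq window of GRCh38.p14 from 250 bases before to 50 bases after a start site. The table gave 41 promoters for 30 of the 39 genes, and CGAS, IFIT2, IRF7, MX2, OAS2, OASL, STING1, TRIM22 and USP18 had no entry. The ISRE core, written GAAA, any 2 bases, then GAAA and searched on both strands, was present in 24 of the 41 promoters (58.5%), which belong to 20 of the 30 genes. It was present in 3.58% of all 34961 promoters of the table. The core of the gamma-activated site (GAS), written TTCNNNGAA, was present in 10 of the 41 (24.4%) and in 7.66% of all promoters. A match is a match of letters and not evidence of binding, and these 2 cores overlap in some promoters. Some promoter windows overlap and share the same ISRE core, so the promoters are not independent. This holds for both windows of IFI44, both of IFI27, and a window of PARP9 with that of DTX3L. Of the 24 promoters with the ISRE core, 16 carried a peak in all 18 lists, 5 in some lists (IFI44L, RSAD2, IFIT3, EPSTI1 and BST2) and 3 in no list (both of IFI27 and 1 of MX1). IFI27 lies in a long stretch without peaks, described below. Of the member promoters without the core, 8 carried a peak in all lists, 6 in some and 3 in none. The share of all promoters with a peak in every list is not given here, so these counts show nothing particular to the ISRE.

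The sequences below are the 150 bases before the start site of 5 promoters, from RefSeq, with ISRE cores in capitals. RSAD2, BST2 and EPSTI1 are shown because their peaks differed between groups, and IFIT1 and ISG15 because theirs were present in all 18 lists. RSAD2 is at chr2:6877627-6877776 on the plus strand, BST2 at chr19:17405631-17405780 on the minus strand, EPSTI1 at chr13:42992242-42992391 on the minus strand, IFIT1 at chr10:89392473-89392622 on the plus strand and ISG15 at chr1:1013347-1013496 on the plus strand.
RSAD2: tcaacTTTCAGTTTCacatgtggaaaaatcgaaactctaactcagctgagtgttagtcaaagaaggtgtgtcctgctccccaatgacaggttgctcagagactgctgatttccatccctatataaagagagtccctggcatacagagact
BST2: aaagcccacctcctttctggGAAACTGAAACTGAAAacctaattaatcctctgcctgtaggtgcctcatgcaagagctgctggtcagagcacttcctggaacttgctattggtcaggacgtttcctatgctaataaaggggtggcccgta
EPSTI1: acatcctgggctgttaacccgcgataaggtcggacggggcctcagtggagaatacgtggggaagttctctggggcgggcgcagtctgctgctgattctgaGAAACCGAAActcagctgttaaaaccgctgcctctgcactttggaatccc
IFIT1: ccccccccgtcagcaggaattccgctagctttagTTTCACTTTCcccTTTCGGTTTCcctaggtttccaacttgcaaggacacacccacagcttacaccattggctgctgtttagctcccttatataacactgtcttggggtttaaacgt
ISG15: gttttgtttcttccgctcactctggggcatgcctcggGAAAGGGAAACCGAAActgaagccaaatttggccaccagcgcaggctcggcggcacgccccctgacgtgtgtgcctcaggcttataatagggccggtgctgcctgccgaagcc
In IFIT1 and RSAD2 the core reads on the minus strand, and BST2, IFIT1 and ISG15 each hold 2 cores. The core of EPSTI1 and 1 of the 2 cores of BST2 share bases with a GAS core, and the 2 cores of BST2 overlap each other, as do those of ISG15.

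The promoter of RSAD2 shown above is the inner of 2 RefSeq starts (start site chr2:6877777). RSAD2 encodes viperin, an enzyme that makes a chain-terminating nucleotide against viruses. No untreated MDA-MB-231 list had a peak over it, and all 3 lists at day 1 and all 3 at day 10 did. All 9 PC3 lists had one. BST2, which encodes tetherin, a membrane protein that holds budding virus at the cell surface, showed the gain in the other line: its promoter had a peak in no untreated and no day 1 PC3 list and in all 3 at day 10, against all 9 MDA-MB-231 lists. The BST2 gain was not present among the 50000 peaks of highest area in each list, nor in the upper 50% of each list by area. With all deposited peaks these were the only gains among the 41 promoters by the rule of 3 of 3 treated and 0 of 3 untreated lists. The count was 1 in MDA-MB-231 at day 1 (0.601% of all promoters met the rule) and 1 at day 10 (0.681%). For PC3 it was 0 at day 1 (0.475%) and 1 at day 10 (0.847%). No member promoter was lost, where the shares of all promoters were 0.215%, 0.360%, 0.103% and 0.870%. With 3 against 3 lists the smallest p of an exact test is 0.1, so presence is given without a test.

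**Figure D1:**
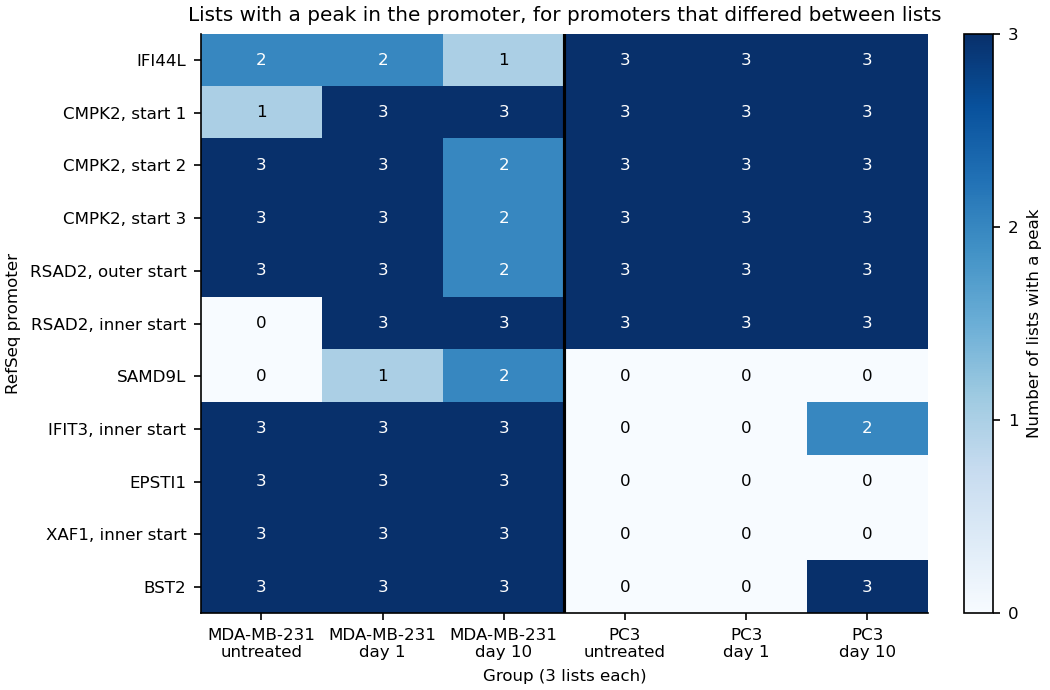
Number of lists with a peak (0 to 3, cell value and colour) in each group (columns) for the RefSeq promoters of the gene set that had a peak in some but not all of the 18 lists (rows). The inner RSAD2 start went from 0 to 3 lists in MDA-MB-231, BST2 from 0 to 3 in PC3 at day 10, and EPSTI1 and the inner XAF1 start had a peak in MDA-MB-231 only.

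The 2 lines differed in more promoters than either did after treatment. Against untreated MDA-MB-231, untreated PC3 lacked 4 member promoter peaks in all 3 lists (the inner start of IFIT3, EPSTI1, XAF1 and BST2; 3.39% of all promoters met the rule) and had 1 more (RSAD2, 2.31%). XAF1, which encodes a factor that opposes an inhibitor of apoptosis, and EPSTI1, an interferon-induced gene of epithelial and stromal cells, had a promoter peak in all 9 MDA-MB-231 lists and in no PC3 list. The inner start of IFIT3 had one in 2 of 3 PC3 lists at day 10. SAMD9L had one in 0, 1 and 2 MDA-MB-231 lists across the 3 states and in no PC3 list, while IFI44L had one in 2, 2 and 1 and in all 9 PC3 lists.

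At gene ends, 27 of the 39 genes had a peak in all 18 lists, 6 in no list (DDX60, STING1, IRF7, IRF9, IFI27 and SP110), and 6 varied (BST2, TRIM22, SAMD9L, IFI44L, XAF1 and EPSTI1). DDX60 and SP110 each had a peak in all lists over a promoter that lies further inside the gene than 1 kb. From 32 to 33 members had a gene-end peak in a MDA-MB-231 list and from 29 to 31 in a PC3 list, which is from 74.4% to 84.6% of the members against from 64.4% to 68.9% of all genes. With all deposited peaks and the 1 kb window, no member gained a gene-end peak after treatment. The shares of all genes were 1.26% (day 1) and 1.28% (day 10) for MDA-MB-231, and 0.851% and 1.47% for PC3. No member lost one, where the shares were 0.135%, 0.300%, 0.0751% and 0.561%. Stricter cuts of the lists and a narrower window changed some of these counts, as given in the closing section. Untreated PC3 lacked the gene-end peak of TRIM22, EPSTI1 and XAF1 that all 3 untreated MDA-MB-231 lists had (3.04% of all genes met that rule), and no member had it the other way (2.78%).

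STING1, IRF7, IRF9 and IFI27 were listed at 0 covered bases in all 18 lists. This says little about those genes. They lie in stretches without a peak in any list that run for 108.6, 132.9, 696 and 1513 kb and hold 4, 8, 33 and 22 protein-coding genes. The stretch around IRF9 also holds PSME1, PSME2 and NEDD8, proteasome and ubiquitin-like genes that every cell uses. Over all genes, 2168 (10.9%) were at 0 in all lists. The other 35 members passed the filter of at least 500 covered bp in at least 3 lists, as did 16816 of all genes. Windows of neighbours overlap: the 39 windows join into 29, and 19 members share a joined window with another, so their values are not independent. The 10 kb flanks can also hold starts of genes outside the set. No peak was assigned to a gene, so a change outside a member may belong to a neighbour.

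Covered length after cisplatin was compared with limma across all 16816 genes, on log2 of the scaled length plus 500 bp. That scale understates the change of genes with little covered length. The threshold was an adjusted p of 0.05. In MDA-MB-231 at day 1, 1 member was higher and 3 lower, against 10.9% of all genes higher and 15.5% lower. At day 10, 3 were higher and 2 lower, against 11.0% and 16.7%. In PC3 at day 1, 0 were higher and 4 lower, against 6.02% and 7.24%. At day 10, 6 were higher and 9 lower, against 11.8% and 33.1%. As shares of the 35 members tested these are 2.86% and 8.57%, 8.57% and 5.71%, 0% and 11.4%, and 17.1% and 25.7%. At both times in MDA-MB-231, and for the lower calls of PC3 at day 10, the share of members was below that of all genes. The medians of members and of all genes were -0.06 and -0.09 for day 1 of MDA-MB-231, -0.09 and -0.11 for its day 10, -0.04 and -0.07 for day 1 of PC3, and -0.07 and -0.16 for its day 10. At unadjusted p under 0.05, 10, 13, 8 and 16 members passed in those 4 comparisons. The share of all genes at that cut is not given here, so these counts say nothing particular to the members.

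The direction of the counts depends on the scaling. Without scaling the median of all genes in PC3 at day 10 was 0.05 in place of -0.16, and 9 members were called higher and 2 lower. Under median-of-ratios scaling the split was also 9 and 2, with a median of all genes at 0.00. The 7 members whose lower call ended under both were DDX60, DTX3L, IFI35, ISG15, PARP9, RIGI and USP18. In PC3 at day 1 the split of 0 and 4 became 3 and 0 without scaling and 1 and 2 under median-of-ratios scaling, and in MDA-MB-231 at day 1 that of 1 and 3 became 2 and 0, and 3 and 1. In MDA-MB-231 at day 10 the split of 3 and 2 was the same without scaling and became 6 and 1 under median-of-ratios scaling. Shares of all genes called are given for the main scaling only, so these splits are not set against all genes.

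**Figure D2:**
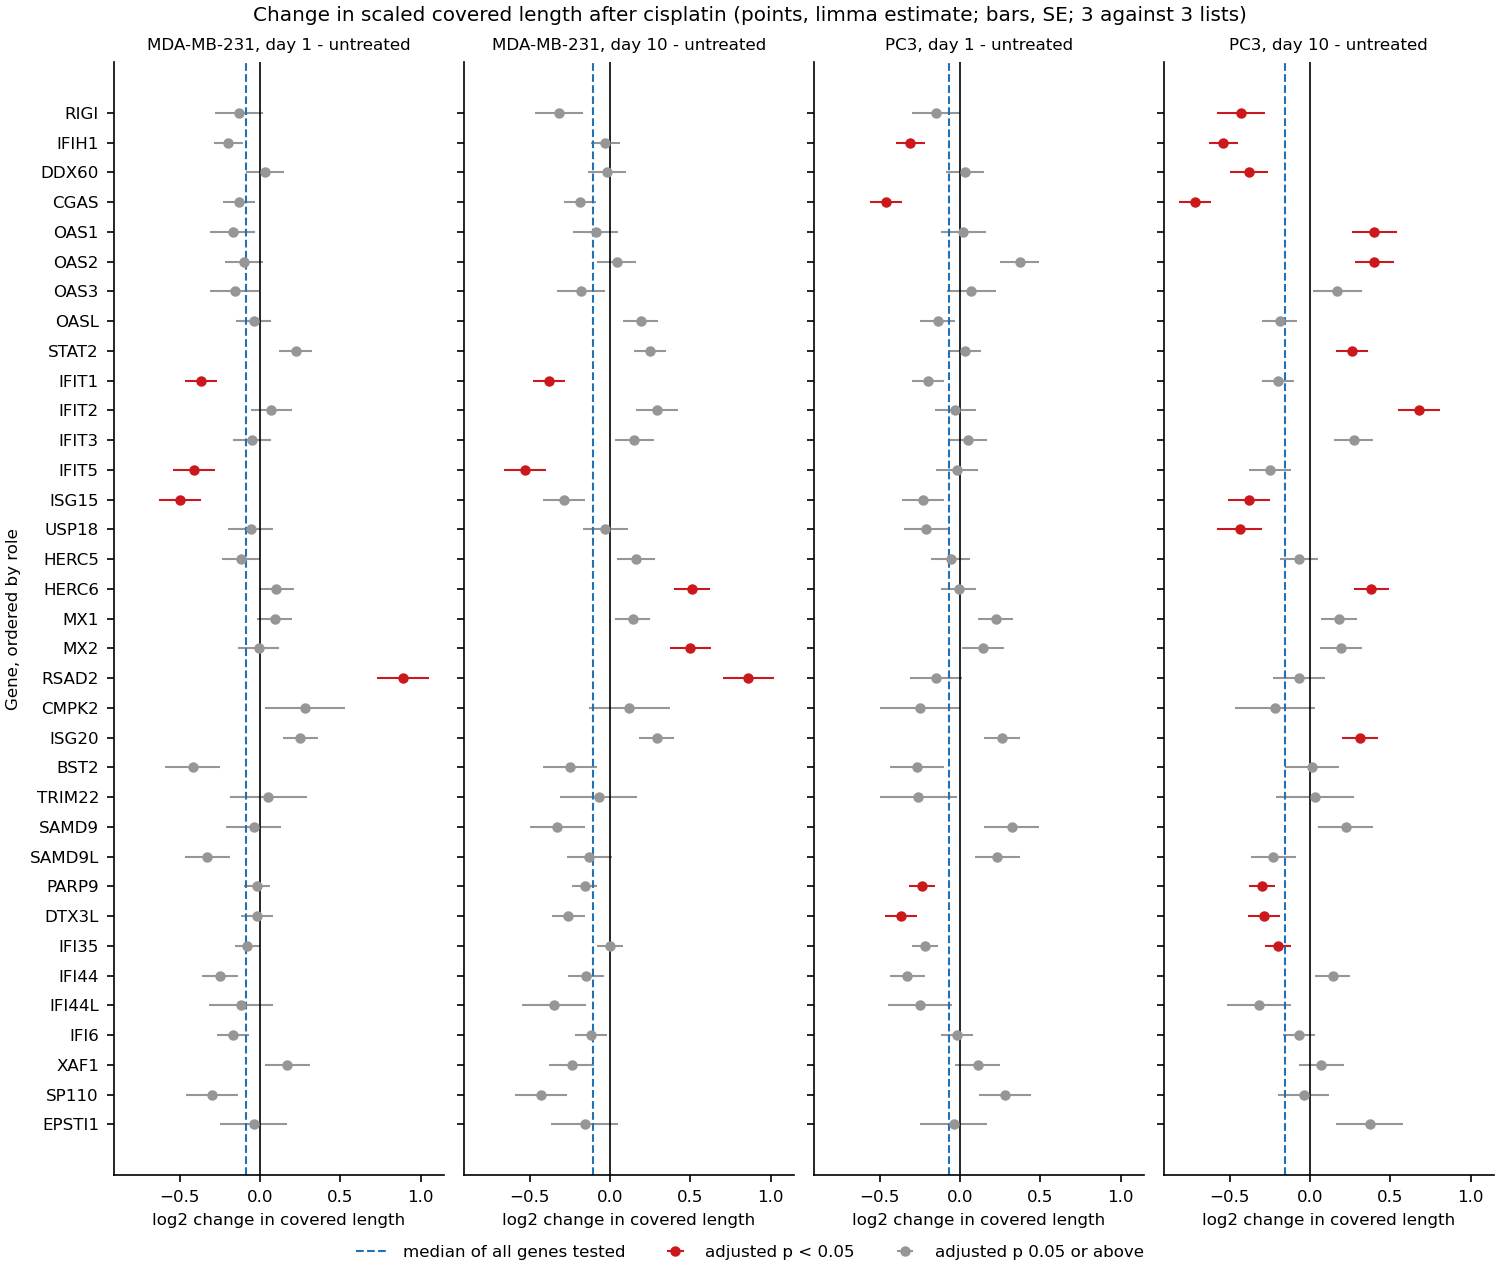
Change in scaled covered length (x axis, log2 scale; point, limma estimate; bar, SE) for the 35 members tested (y axis, ordered by role) in 4 comparisons of 3 treated with 3 untreated lists. Red points passed an adjusted p of 0.05 and the dashed line is the median of all 16816 genes; RSAD2 stands at 0.89 and 0.86 in MDA-MB-231, and CGAS at -0.72 in PC3 at day 10.

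Among the nucleic-acid sensors, CGAS, IFIH1, RIGI and DDX60 had less covered length in PC3 at day 10, and none of the 4 passed the test in MDA-MB-231 at either time. The day 10 difference between the lines passed for CGAS and IFIH1, as given below. It did not pass for RIGI (-0.11, adjusted p = 0.753) or DDX60 (-0.36, adjusted p = 0.155). In MDA-MB-231 RIGI covered 3.27, 3.27 and 3.63 kb in untreated lists. At day 10 it covered 2.31, 2.74 and 2.8 kb there (-0.32, adjusted p = 0.113). CGAS, the cytosolic DNA sensor (chr6:73423711-73452297), covered 2.24, 2.83 and 3.02 kb in untreated PC3. It covered 1.76, 1.78 and 1.89 kb at day 1 and 1.29, 1.48 and 1.54 kb at day 10. The 3 groups of lists did not overlap. The log2 change was -0.46 (SE 0.10, adjusted p = 0.0102) at day 1 and -0.72 (SE 0.10, adjusted p = 7.35e-05) at day 10. The day 10 call held in all 11 other settings, with changes from -1.15 to -0.45, and without any of the 18 lists. The day 1 call ended without the untreated PC3 list of replicate 3 (adjusted p = 0.0527; over all settings from 0.00312 to 0.692). It also ended in 5 of 11 other settings: without scaling, with the 50000 peaks of highest area, with the upper 50% by area, in the gene body alone and with only the groups compared in the fit.

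The CGAS peaks show where the length went. In untreated PC3 2 of 3 lists had a peak inside the gene at chr6:73450440-73451024, which no treated list had. The neighbouring peak at the gene end, chr6:73451160-73452627, covered on average 1430 unscaled bp in untreated lists, 1375 at day 1 and 957 at day 10. Another peak outside the gene, chr6:73461597-73462352, covered 686, 683 and 647 bp. In MDA-MB-231 CGAS covered 4.4, 4.66 and 4.9 kb in untreated lists and 3.66, 4.13 and 4.3 kb at day 10, and did not pass the test.

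IFIH1, RIGI and DDX60, which read RNA, were also called lower at day 10, where 33.1% of all genes were. IFIH1, which encodes MDA5 (chr2:162267074-162318684), covered 2.72, 2.72 and 2.87 kb in untreated PC3, 1.9, 2.18 and 2.36 kb at day 1 and 1.57, 1.78 and 1.93 kb at day 10, with no overlap between untreated and treated lists. The changes were -0.31 (SE 0.09, adjusted p = 0.0379) and -0.54 (SE 0.09, adjusted p = 0.000313). A peak inside IFIH1 at chr2:162293267-162293696 was present in 3, 3 and 1 PC3 lists. The day 10 call held in 10 of 11 other settings and ended with the 50000 peaks of highest area (change -0.05). The day 1 call ended in 7 of 11 and without any 1 of 5 lists. RIGI, which encodes RIG-I, covered 2.54, 2.57 and 2.58 kb in untreated PC3 and 1.15, 1.99 and 2.36 kb at day 10 (change -0.43, SE 0.15, adjusted p = 0.0249). Its day 10 lists spread widely, the call ended without any 1 of 4 lists, and the change turned to 0.32 with the 50000 peaks of highest area. DDX60, an RNA helicase, covered 1.65, 1.67 and 1.77 kb in untreated PC3, against 1.04, 1.2 and 1.33 kb at day 10 (change -0.38, SE 0.12, adjusted p = 0.0167; 0.02 with the 50000 peaks of highest area). The RIGI and DDX60 calls ended both without scaling and with median-of-ratios scaling. That of DDX60 also ended without the untreated list of replicate 3 and without the day 10 list of replicate 3 (adjusted p up to 0.0673; over all settings from 0.00949 to 0.973). DDX60 also fell from day 1 to day 10 (-0.41), a call that ended without any 1 of 13 lists.

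The oligoadenylate synthetases OAS1, OAS2 and OAS3 sense double-stranded RNA and make the messenger that activates RNase L, and OASL is a relative without that activity. They lie side by side on chromosome 12, apart from OASL. OAS2 covered 1.79, 2.27 and 2.41 kb in untreated PC3, 2.86, 2.91 and 2.97 kb at day 1 and 2.58, 2.72 and 3.75 kb at day 10, above every untreated list at both times. It rose at day 10 (0.40, SE 0.12, adjusted p = 0.0133). That call ended without the untreated list of replicate 2 and without the day 10 list of replicate 3 (adjusted p up to 0.0804; over all settings from 3.63e-05 to 0.105). OAS1 was called higher too (0.40, SE 0.14, adjusted p = 0.03), although 1 untreated list at 3.36 kb lay above the lowest day 10 list at 3.3 kb. That call ended with the replicate block (adjusted p = 0.0501) and without any 1 of 3 lists. It also ended in the gene body alone, with only the groups compared in the fit, and with the upper 50% by area. With the 50000 peaks of highest area it ended as well, at a change of -0.07. In both lines a peak upstream of OAS1 was gained at day 10, at chr12:112905719-112906017 in MDA-MB-231 and chr12:112905647-112906020 in PC3. OAS3 and OASL did not pass in either line. OASL covered 4.01, 4.48 and 4.66 kb in untreated MDA-MB-231 and 4.77, 4.87 and 5.64 kb at day 10.

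Of the 3 transcription factors, STAT2 alone had covered length. It covered 4.14, 4.57 and 4.7 kb in untreated PC3 and 4.71, 5.7 and 5.99 kb at day 10 (0.26, SE 0.10, adjusted p = 0.0488). That call ended without any 1 of 13 of the 18 lists and with the replicate block (adjusted p = 0.0625). In MDA-MB-231 STAT2 covered 3.44, 3.65 and 4.41 kb in untreated lists and 4.45, 4.56 and 4.92 kb at day 10, without passing the test, and a peak outside the gene at chr12:56338604-56339842 was present in 0, 3 and 3 lists.

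The IFIT genes encode proteins that bind foreign RNA and lie in a cluster on chromosome 10. In MDA-MB-231 IFIT1 and IFIT5 fell at both times. IFIT1 covered 4.47, 4.7 and 4.94 kb in untreated lists, 3.33, 3.5 and 3.71 kb at day 1 and 3.3, 3.53 and 3.7 kb at day 10. Every treated list lay below every untreated list, with changes of -0.37 (SE 0.10, adjusted p = 0.0107) and -0.38 (SE 0.10, adjusted p = 0.00898). IFIT5 covered 4.43, 4.67 and 4.7 kb, then 3.14, 3.23 and 3.69 kb, then 2.6, 3.05 and 3.51 kb, with changes of -0.41 (adjusted p = 0.0336) and -0.53 (adjusted p = 0.00764). The windows of these 2 genes overlap and share peaks. A peak between them, chr10:89412250-89412569, was present in 3, 0 and 0 MDA-MB-231 lists. The day 1 call of IFIT1 ended without the day 1 list of replicate 3 (adjusted p = 0.0511; over all settings from 0.00568 to 0.502), and that of IFIT5 ended without any 1 of 5 lists. Under median-of-ratios scaling, in the gene body alone and with 2 kb on each side IFIT1 passed at neither time. Neither gene passed at either time with the 50000 peaks of highest area or the upper 50% by area. The day 1 calls of both genes ended without scaling, and that of IFIT5 also under median-of-ratios scaling. The day 10 call of IFIT5 ended in the gene body alone and with 2 kb on each side.

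In PC3 IFIT2 rose at day 10. It covered 0.884, 0.892 and 1.08 kb in untreated lists, 0.884, 0.911 and 0.971 kb at day 1 and 1.52, 1.9 and 2.09 kb at day 10. The day 10 lists lay above the other 6, with a change of 0.68 against untreated cells (SE 0.13, adjusted p = 0.000729) and 0.71 against day 1 (SE 0.13, adjusted p = 0.00355). The largest gain lay past the gene end: chr10:89309424-89310714 had a peak in 0, 0 and 3 PC3 lists and covered 838 unscaled bp on average at day 10. Before the gene, chr10:89301168-89301594 had a peak in 1, 3 and 3 PC3 lists and covered 117, 409 and 414 bp. In the gene body alone the change against untreated cells was -0.24. Both calls ended there, with the 50000 peaks of highest area and with the upper 50% by area. The call against day 1 also ended with only the groups compared in the fit. The same place, chr10:89309876-89310484, had a peak in 0, 2 and 3 MDA-MB-231 lists, where IFIT2 covered 1.42, 1.56 and 1.67 kb in untreated lists and 1.77, 1.98 and 2.28 kb at day 10 without passing the test. A peak past the end of IFIT3, chr10:89342565-89343098, was present in 0, 3 and 3 MDA-MB-231 lists, and at chr10:89342582-89343098 in 0, 2 and 3 PC3 lists. IFIT3 itself passed in neither line.

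**Figure D3:**
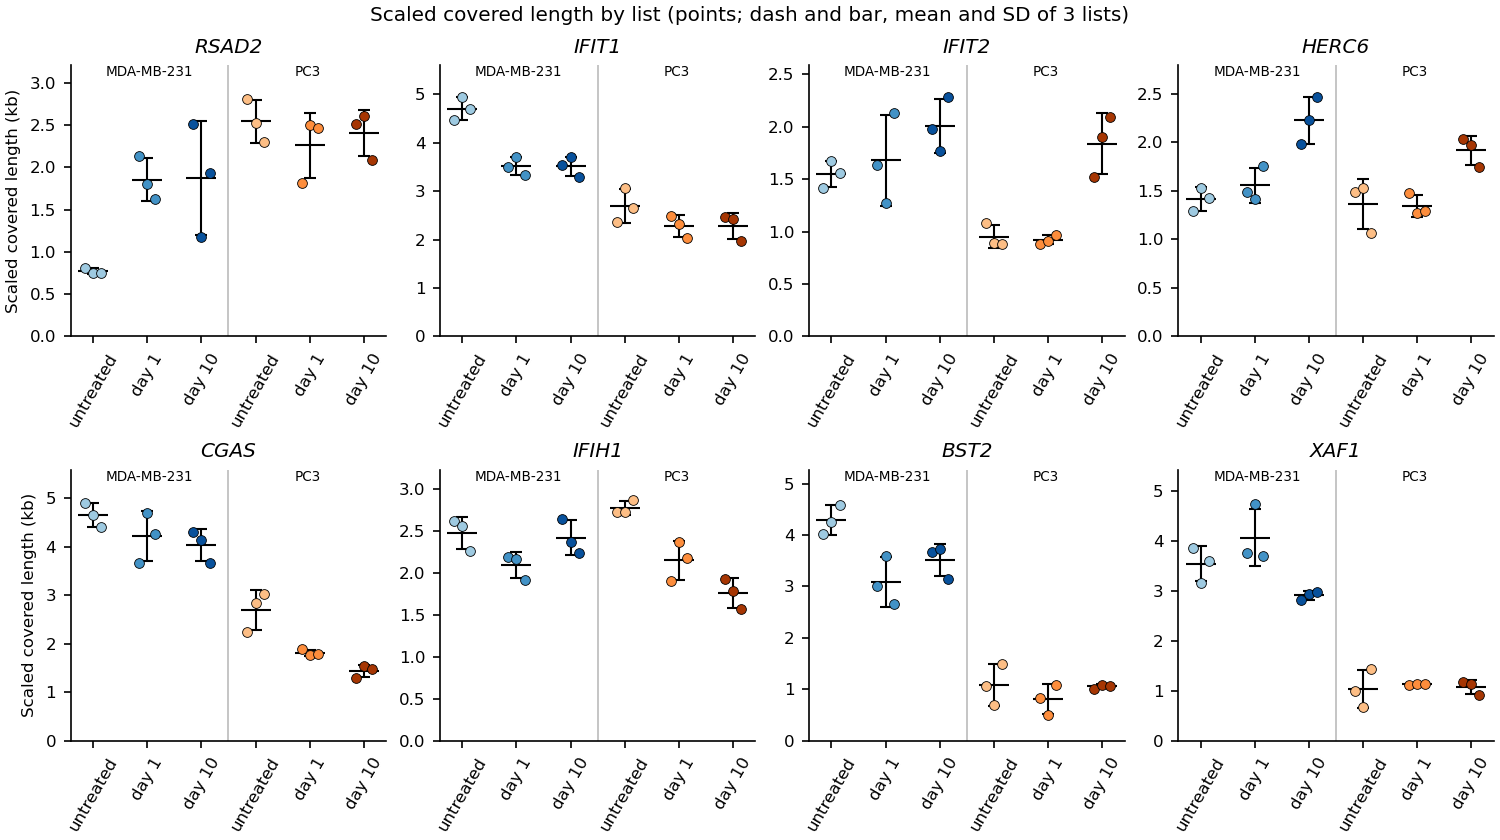
Scaled covered length (y axis, kb) of 8 members in each of the 18 lists (points), with the mean and SD of 3 lists per group (dash and bar), for untreated, day 1 and day 10 lists of MDA-MB-231 and PC3. RSAD2 rose and IFIT1 fell in MDA-MB-231, CGAS and IFIH1 fell and IFIT2 rose in PC3, HERC6 rose at day 10 in both lines, and BST2 and XAF1 were lower in all 9 PC3 lists than in all 9 MDA-MB-231 lists.

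ISG15 is a ubiquitin-like protein, HERC5 is the ligase that attaches it, HERC6 is a relative of HERC5, and USP18 removes it and dampens interferon receptor signalling. ISG15 (chr1:1013497-1014540) covered 6.87, 7.19 and 8.49 kb in untreated MDA-MB-231 and 4.11, 5.28 and 6.3 kb at day 1 (-0.50, SE 0.13, adjusted p = 0.0093). Its promoter peak changed little, with 1499 and 1481 unscaled bp on average in chr1:1013141-1014690, and a peak outside the gene at chr1:1019140-1022253 went from 2909 to 1732 bp. The call was not made in the gene and 2 kb on each side, nor without scaling. In PC3 ISG15 covered 7.44, 8.22 and 8.34 kb in untreated lists and 5.47, 5.89 and 6.84 kb at day 10 (-0.38, SE 0.13, adjusted p = 0.0235). USP18 covered 1.21, 1.65 and 1.8 kb in untreated PC3 and 0.855, 1.07 and 1.11 kb at day 10 (-0.44, SE 0.14, adjusted p = 0.0191). Without any 1 of 4 lists for ISG15 and any 1 of 3 for USP18 the PC3 call ended.

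HERC6 rose at day 10 in both lines. It covered 1.29, 1.43 and 1.53 kb in untreated MDA-MB-231 and 1.98, 2.23 and 2.47 kb at day 10 (0.51, SE 0.11, adjusted p = 0.00315). In PC3 it covered 1.07, 1.49 and 1.53 kb and then 1.75, 1.97 and 2.04 kb (0.38, SE 0.11, adjusted p = 0.0112). It was also higher at day 10 than at day 1, by 0.40 (adjusted p = 0.0446) and 0.39 (adjusted p = 0.0426). These calls ended without any 1 of 9 and any 1 of 8 lists, and in 8 and 6 of 11 other settings. In both lines a peak was added past its end, toward HERC5: chr4:88447304-88447696 had a peak in 0, 0 and 3 MDA-MB-231 lists and chr4:88447272-88447707 in 0, 1 and 3 PC3 lists. In MDA-MB-231 a peak inside the gene, chr4:88392148-88392384, was also added, in 0, 2 and 3 lists. The MDA-MB-231 call against untreated cells ended in 4 of 11 other settings. They were the gene body alone, 2 kb on each side, the 50000 peaks of highest area and the upper 50% by area (adjusted p up to 0.926). The PC3 call ended in the same settings and with only the groups compared in the fit. In the gene body alone the PC3 change was -0.20. The PC3 call ended without the untreated list of replicate 3 (adjusted p = 0.0718; over all settings from 0.00262 to 0.989). HERC5 did not pass in either line.

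The antiviral effectors were led by RSAD2 (chr2:6865885-6898239) in MDA-MB-231. It covered 0.745, 0.753 and 0.808 kb in untreated lists, 1.63, 1.8 and 2.13 kb at day 1 and 1.17, 1.93 and 2.51 kb at day 10, all above the untreated lists. The change was 0.89 (SE 0.16, adjusted p = 0.00102) at day 1 and 0.86 (SE 0.16, adjusted p = 0.000948) at day 10. The peak over the inner start, chr2:6877332-6878203, covered on average 0, 803 and 772 unscaled bp in the 3 states, and the peak at the outer start covered 698, 1060 and 914 bp. In PC3 the inner peak was there before treatment (592, 774 and 865 bp), and RSAD2 covered 2.3, 2.52 and 2.81 kb in untreated lists and 2.09, 2.51 and 2.61 kb at day 10. The change at day 1 held in all 11 other settings, from 0.47 to 1.66, and the day 10 change in 10 of 11, ending with the 50000 peaks of highest area (0.57, adjusted p = 0.457; over all settings from 1.15e-06 to 0.457). Neither ended without any of the 18 lists. CMPK2, a mitochondrial nucleotide kinase whose gene overlaps RSAD2 at its start, covered 0.745, 0.753 and 0.808 kb in untreated MDA-MB-231 from the same shared peaks, and 0.25, 1.12 and 1.67 kb at day 10, without passing.

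**Figure D4:**
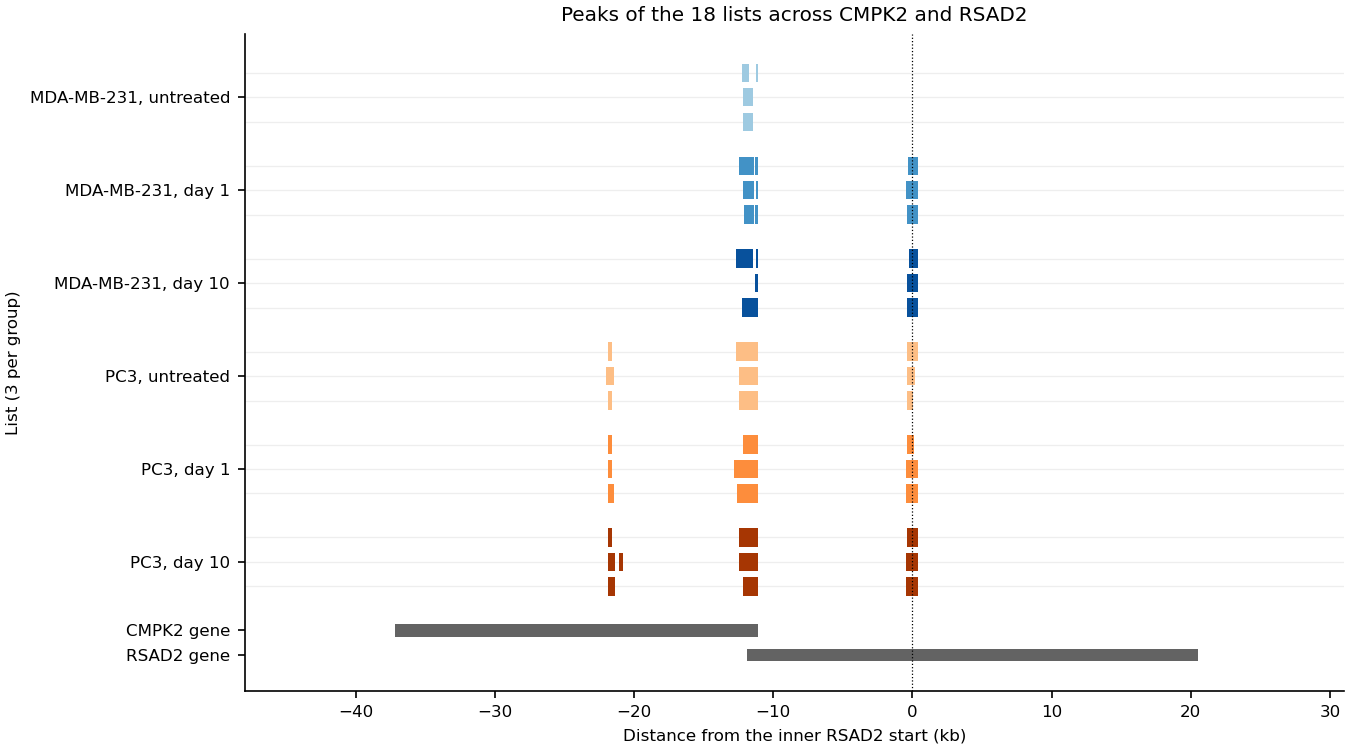
Peaks (bars) in each of the 18 lists (rows, 3 per group) against distance from the inner RSAD2 start (x axis, kb), with the CMPK2 and RSAD2 genes in grey. The peak at 0 kb is absent from the 3 untreated MDA-MB-231 lists and present in the 6 treated and 9 PC3 lists, while all 18 lists have a peak near the shared gene ends, where the genes overlap from -11.9 to -11.1 kb.

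The dynamin-like GTPase gene MX2 covered 1.77, 1.77 and 2.1 kb in untreated MDA-MB-231, 1.71, 1.75 and 2.14 kb at day 1 and 2.64, 2.67 and 3.28 kb at day 10. The day 10 lists lay above the other 6 (0.50 against untreated, SE 0.13, adjusted p = 0.0116; 0.51 against day 1, adjusted p = 0.0362). A peak inside MX2, chr21:41396504-41397123, was present in 0, 1 and 3 of those lists, and at chr21:41396382-41397197 in all 9 PC3 lists. The call against untreated cells ended without the day 10 list of replicate 1 (adjusted p = 0.0571; over all settings from 0.00432 to 0.627), and that against day 1 without any 1 of 5 lists. The exonuclease gene ISG20 was called higher in PC3 at day 10 (0.31, SE 0.11, adjusted p = 0.03), although 1 untreated list at 6.16 kb lay above the lowest day 10 list at 6.09 kb. It ended without any 1 of 4 lists. MX1, BST2, TRIM22, SAMD9 and SAMD9L did not pass against untreated cells in either line. In MDA-MB-231 BST2 covered 2.65, 3 and 3.6 kb at day 1, below all 3 untreated lists, and with the replicate block it was called lower. BST2 in PC3 covered 0.688, 1.07 and 1.49 kb in untreated lists and 1.01, 1.07 and 1.09 kb at day 10, and the like totals hold different peaks: chr19:17403110-17403577 was present in 3, 1 and 0 lists and the promoter peak chr19:17405255-17405912 in 0, 0 and 3. At SAMD9 a peak outside the gene was lost in MDA-MB-231 at day 10 (chr7:93119009-93119681, in 3, 3 and 0 lists) and the same place was gained in PC3 (chr7:93119096-93119671, in 0, 2 and 3).

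PARP9 and DTX3L encode partners in ADP-ribosylation and ubiquitination, and their genes meet at their starts on chromosome 3. In PC3 PARP9 covered 4.84, 5.15 and 5.27 kb in untreated lists, 4.18, 4.25 and 4.3 kb at day 1 and 3.91, 4.09 and 4.1 kb at day 10 (-0.24, adjusted p = 0.0473, and -0.30, adjusted p = 0.00432). DTX3L covered 3.39, 3.79 and 4.08 kb, then 2.48, 2.7 and 3.19 kb, then 2.68, 2.98 and 3.31 kb (-0.37, adjusted p = 0.0216, and -0.29, adjusted p = 0.0252). Treated lists lay below untreated lists in each case. The PARP9 call at day 1 ended without any 1 of 14 lists and turned to 0.02 without scaling. The DTX3L calls ended without any 1 of 4 lists, and no day 10 call of this pair held without scaling.

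Of the remaining interferon-induced genes, IFI35 was called lower in PC3 at day 10 (-0.20, SE 0.08, adjusted p = 0.0452; 0.03 without scaling) and ended without any 1 of 11 lists. It covered 4.64, 5.06 and 5.15 kb in untreated PC3 and 3.97, 4.3 and 4.47 kb at day 10. IFI35 also had a peak at its end at chr17:43013278-43015446 in 0, 3 and 3 MDA-MB-231 lists and at chr17:43014476-43015454 in 0, 0 and 3 PC3 lists. IFI44 was higher in PC3 at day 10 (0.458, 0.507 and 0.584 kb) than at day 1 (0.216, 0.228 and 0.25 kb), by 0.47 (adjusted p = 0.0163), while the untreated lists at 0.272, 0.488 and 0.528 kb lay above every day 1 list and overlapped the day 10 lists, and IFI44 did not pass against them. That call ended without the day 1 list of replicate 2 and the day 10 list of replicate 3 (adjusted p up to 0.0648; over all settings from 0.00704 to 0.99). IFI44L, IFI6, XAF1, SP110 and EPSTI1 did not pass against untreated cells in either line in the fit without a replicate block. With the block IFI44L was called lower at day 10 in both lines and SP110 in MDA-MB-231.

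Between the 2 treated times, 2 members were higher at day 10 than at day 1 in MDA-MB-231 and 0 lower (HERC6 and MX2; 2.13% and 3.24% of all genes). In PC3 3 were higher (IFIT2, IFI44 and HERC6) and 2 lower (DDX60 and SAMD9L; 2.19% and 5.50%). SAMD9L covered 1.14, 1.27 and 1.59 kb at day 1 and 0.773, 0.817 and 0.89 kb at day 10 (-0.46, adjusted p = 0.0482), a call that ended without any 1 of 14 lists. The comparisons of one line share lists, so they are not independent.

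Counted as regions, the windows of the 39 genes held 175 merged peak regions in MDA-MB-231 and 181 in PC3. In MDA-MB-231 9 (5.14%) were gained at day 1 and 18 (10.3%) at day 10, against 7.86% and 10.0% of all regions of that line, and 2 (1.14%) were lost at each time, against 0.684% and 0.909%. In PC3 1 (0.552%) was gained at day 1 and 19 (10.5%) at day 10, against 4.28% and 10.4%, and 0 and 1 (0.552%) were lost, against 0.407% and 1.33%. At day 10 the share of gained regions was thus near that of all regions in both lines. Among gains at day 10 in both lines were places past IFIT2 and IFIT3, between HERC6 and HERC5, upstream of OAS1, at the end of IFI35, inside EPSTI1 (chr13:42893405-42893724 and chr13:42893428-42893945) and inside MX1 (chr21:41458217-41458420 and chr21:41457841-41458423).

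More members were called between the untreated lines than in any comparison of treated with untreated cells. This did not hold gene by gene. IFIH1, RIGI, DDX60, OAS1, STAT2, ISG15, USP18 and HERC6 were called after treatment but not between the untreated lines. Untreated PC3 had less covered length than untreated MDA-MB-231 at 17 members and more at 6, against 44.3% of all genes lower and 21.0% higher. As shares of the 35 members these are 48.6% and 17.1%, so the counts are close to those of all genes. The median change was -0.34 for members and -0.20 for all genes. Gene copy number was not measured in either line, and its part in these differences was not tested. Of the 23 calls, 13 held in every other setting that gave a value (8 for IFI44 and 10 for the others) and without any of the 18 lists.

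BST2 differed most among the lower members, with 4.01, 4.26 and 4.59 kb in untreated MDA-MB-231 and 0.688, 1.07 and 1.49 kb in untreated PC3 (-1.63, SE 0.17, adjusted p = 2.30e-07). XAF1 covered 3.17, 3.61 and 3.86 kb against 0.668, 1 and 1.44 kb (-1.42, SE 0.14, adjusted p = 1.35e-07). OAS2 covered 4.11, 4.75 and 4.83 kb against 1.79, 2.27 and 2.41 kb (-0.93, adjusted p = 2.88e-06), and OAS3 covered 3.91, 4.41 and 5.05 kb against 2.06, 2.17 and 2.68 kb (-0.82, adjusted p = 9.23e-05). All 4 IFIT genes were lower in PC3: IFIT5 by -0.78, IFIT3 by -0.73, IFIT1 by -0.71 and IFIT2 by -0.50. IFI35 (-0.91), CGAS (-0.70), SAMD9L (-0.78), SAMD9 (-0.75), TRIM22 (adjusted p = 0.00162), EPSTI1 (-0.85), IFI6 (-0.48), IFI44 (-0.46) and HERC5 (-0.46) were the other lower members.

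The higher members were RSAD2 (1.26, SE 0.16, adjusted p = 3.46e-06), CMPK2 (0.96), PARP9 (0.92), DTX3L (0.67), ISG20 (0.42) and MX2 (0.33). RSAD2 and CMPK2 share peaks, as do PARP9 and DTX3L. PARP9 covered 2.21, 2.5 and 2.66 kb in untreated MDA-MB-231 and 4.84, 5.15 and 5.27 kb in untreated PC3 (SE 0.08, adjusted p = 1.24e-08). The MX2 lists overlapped between the lines. Its call ended without any 1 of 5 lists, and its difference was -0.34 with the 50000 peaks of highest area.

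**Figure D5:**
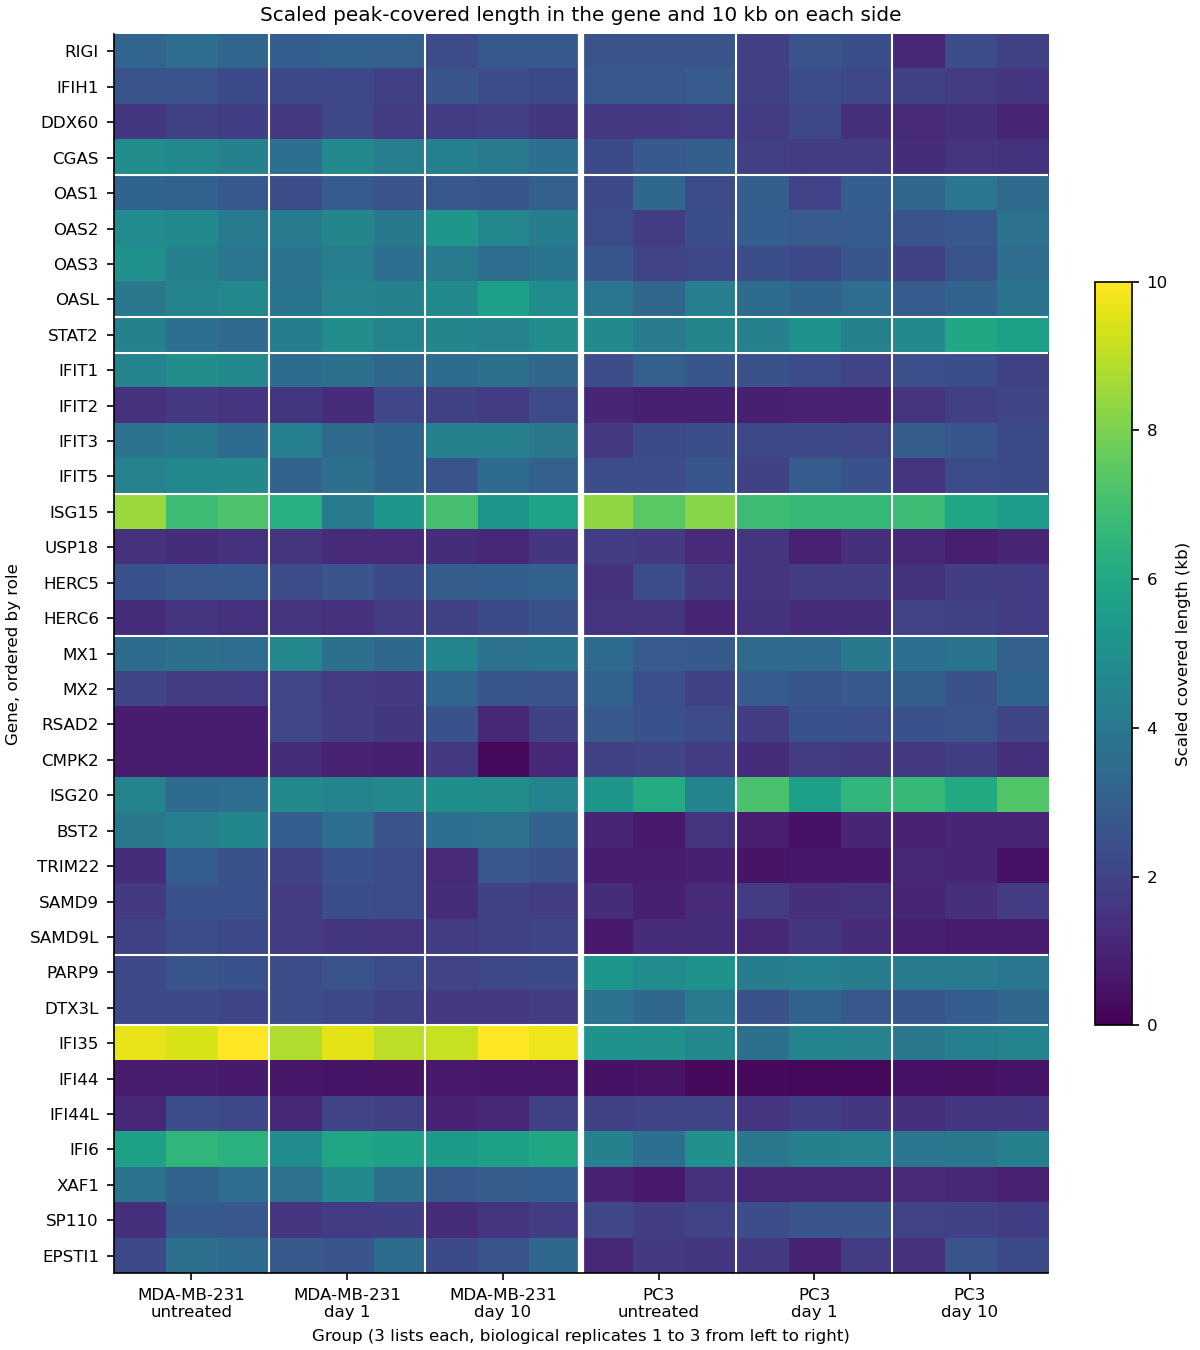
Scaled covered length (colour, 0 to 10 kb) of the 35 members tested (rows, by role) in the 18 lists (columns, 3 per group). For IFI35, BST2, XAF1 and PARP9 the step at the middle line between MDA-MB-231 and PC3 is larger than the steps between untreated and treated lists of one line. For other members, such as IFIH1 and USP18, it is not.

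The change after cisplatin was also compared between the lines, as the difference of the differences in the same fit. At day 1, 1 member had a lower change in PC3 than in MDA-MB-231 and 0 a higher one, against 3.44% and 1.86% of all genes, and at day 10 3 had a lower and 0 a higher one, against 10.6% and 5.82%. At day 1 the member was RSAD2, by -1.03 (SE 0.23, adjusted p = 0.0147). At day 10 they were RSAD2 by -0.93 (SE 0.23, adjusted p = 0.0119), CGAS by -0.53 (SE 0.15, adjusted p = 0.0209) and IFIH1 by -0.50 (SE 0.13, adjusted p = 0.0149). For the other 32 members at day 10 a difference between the lines did not pass the test. None of the 4 differences passed without scaling or with the upper 50% of each list by area.

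Genes around the set were taken from 4 fixed lists. Their calls are from the main fit alone, and no other setting or left-out list is reported for them. Of 21 interferon genes, 3 passed the filter and none was called after treatment in either line, where none was under an unadjusted p of 0.05 either. IFNA2 and IFNA5 were listed at 0 in all 9 MDA-MB-231 lists and covered from 0.65 to 0.885 kb and from 0.382 to 0.644 kb in untreated PC3. Of 14 genes of interferon receptors and JAK-STAT signalling, 0 were higher and 2 lower for day 1 of MDA-MB-231 (0% and 14.3%, against 10.9% and 15.5% of all genes) and 1 and 1 for its day 10 (7.14% each, against 11.0% and 16.7%). In PC3 0 were higher and 2 lower at the earlier time (0% and 14.3%, against 6.02% and 7.24%), and 0 and 5 at the later (0% and 35.7%, against 11.8% and 33.1%). JAK2, a kinase of the interferon gamma receptor, fell in PC3 by 0.40 (adjusted p = 0.0294) and 0.51 (adjusted p = 0.00181) on the log2 scale. SOCS1, an inhibitor of that kinase, fell by 0.32 and 0.37. STAT3 was listed at 0 in all 9 PC3 lists and covered from 8.68 to 10.2 kb in untreated MDA-MB-231. Gene copy number was not measured, so a 0 throughout a line, here or at IFNA2 and IFNA5, need not mean closed chromatin. IFNGR1, a chain of the interferon gamma receptor, rose in MDA-MB-231 at day 10 (0.29, adjusted p = 0.0312).

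Of 22 genes of nucleic-acid sensing and interferon induction outside the set, 21 passed the filter. In PC3 at day 10, 7 were higher and 1 lower (33.3% and 4.76%, against 11.8% and 33.1% of all genes), with a median change of 0.23 against -0.16 for all genes. At day 1, 2 were higher and 0 lower (9.52% and 0%, against 6.02% and 7.24%). In MDA-MB-231 1 was higher and 1 lower at day 1 (4.76% each, against 10.9% and 15.5%), and 1 and 2 at day 10 (4.76% and 9.52%, against 11.0% and 16.7%). AIM2, an inflammasome sensor of cytosolic DNA, covered 0, 0.322 and 1.26 kb in untreated PC3, 1.77, 1.86 and 2.82 kb at day 1 and 3.06, 3.31 and 3.84 kb at day 10 (1.54, adjusted p = 0.00281, and 2.12, adjusted p = 3.61e-05). ADAR, which edits double-stranded RNA, rose in MDA-MB-231 from 3.67, 3.73 and 4.38 kb to 7.04, 7.12 and 7.89 kb at day 1 (0.83, adjusted p = 9.31e-05), and in PC3 at day 10 (0.60, adjusted p = 0.000709). The transcription factor IRF1 rose in PC3 at day 10 (0.40, adjusted p = 0.00271), as did the kinase IKBKE (0.41, adjusted p = 0.00185). DHX58, a further RIG-I-like receptor, fell in MDA-MB-231 at both times (-0.40 and -0.47), and covered from 0.231 to 0.265 kb in untreated PC3 against from 5.19 to 6.26 kb in untreated MDA-MB-231.

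Of 30 further interferon-induced genes, 26 passed the filter. IFI16 is in this list and in the sensing list above, so the counts of these lists are not independent. In MDA-MB-231 2 were higher and 2 lower at day 1 (7.69% each, against 10.9% and 15.5% of all genes), and 2 and 5 at day 10 (7.69% and 19.2%, against 11.0% and 16.7%). The PC3 counts were 1 and 1 at the earlier time (3.85% each, against 6.02% and 7.24%), and 5 and 4 at the later (19.2% and 15.4%, against 11.8% and 33.1%). The guanylate-binding protein gene GBP5 was listed at 0 in all 3 untreated MDA-MB-231 lists and covered from 0.619 to 0.853 kb at day 1 and from 0.955 to 1.45 kb at day 10. In PC3 GBP5 covered 0.377, 0.396 and 0.447 kb and then 0.92, 1.06 and 1.09 kb at day 10 (0.75, adjusted p = 0.000315). GBP4 rose in PC3 at both times (0.69 and 1.00) and in MDA-MB-231 at day 10 (0.52, adjusted p = 0.00684). Of 18 housekeeping genes, used for comparison, 17 passed the filter. In that list 0 were higher in either line. In MDA-MB-231 5 and 4 were lower at the 2 times (29.4% and 23.5%, against 15.5% and 16.7% of all genes), and in PC3 1 and 6 (5.88% and 35.3%, against 7.24% and 33.1%).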

How the data were processed

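Bulk ATAC-seq was measured in 54 samples of MDA-MB-231 and PC3, and 18 peak lists were deposited, 1 per biological replicate, each standing for 3 samples. The sources used here do not say how those 3 were combined. Per the submitters' processing notes the authors used Genrich 0.6.2, Bowtie2 2.3.5.1 and SAMtools 1.6 with FastQC 0.12.1, Picard and R 4.4.1, on hg38/GRCh38. Column 7 of each deposited list is a score for peak area, used to rank peaks in the alternatives, and column 8 is a -log10 p-value that the authors deposited and that was not used. No read counts or depths are in the lists.

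Covered length was computed per gene body and 10 kb on each side, from RefSeq positions, scaled to the mean total covered length, and tested as log2 of the length plus 500 bp with limma 3.58.1 in R 4.3.3 (trend, all 18 lists, 6 group means, 12 residual degrees of freedom, Benjamini-Hochberg over 16816 genes, threshold 0.05). Genes needed 500 bp in 3 lists. A gain or loss of presence was 3 of 3 lists against 0 of 3, without a test. Other steps used Python 3.11.15, NumPy 2.4.6, pandas 2.3.3 and Matplotlib 3.10.9, and the fit was tested on simulated data. Peaks outside chromosomes 1 to 22 and X (2767 of 2177293) were left out.

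Same-numbered replicates deviated together (correlation over 0.1 in every pair) for MDA-MB-231 day 1 against control (0.389, 0.235 and 0.193), MDA-MB-231 day 10 against day 1 (0.419, 0.31 and 0.197) and PC3 day 10 against day 1 (0.345, 0.132 and 0.216), and not for the other treated and untreated pairs. For MDA-MB-231 day 10 against control the correlations were 0.33, 0.133 and 0.0564, so that pair missed the cut at replicate 3 alone. The main fit had no replicate block. The labels give the shared numbers but do not say what they mark.

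Values per list were given by rule for members called against untreated cells or between untreated lines with groups that do not overlap, at most 12 per comparison by adjusted p, and up to 4 called genes per pathway list and comparison; members outside that rule that are named with values were chosen after their values were seen. The members and lists were chosen with earlier results of these data known. Alternatives for promoter presence were chosen after seeing the data. Alternatives were other scaling, pseudocounts of 100 and 2000 bp, no filter, the 50000 peaks of highest area, the upper 50% by area, narrower windows, only the groups compared, the replicate block and each list left out.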

Additional observations from a re-analysis of the deposited data

Results flagged for a closer look

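The change after cisplatin differed between the lines at 3 members by the test of the difference itself. For RSAD2 the change in PC3 minus that in MDA-MB-231 was -1.03 at day 1 and -0.93 at day 10, and for CGAS and IFIH1 it was -0.53 and -0.50 at day 10. RSAD2 gained covered length in MDA-MB-231 and had its inner start peak in PC3 before treatment, while CGAS and IFIH1 fell in PC3. Each of the 4 differences passed in 8 of 11 other settings. None passed without scaling or with the upper 50% of each list by area. With the 50000 peaks of highest area RSAD2 at both times and IFIH1 did not pass, and with a pseudocount of 2000 bp CGAS did not. The CGAS difference also ended without the untreated MDA-MB-231 list of replicate 3, the MDA-MB-231 day 10 list of replicate 1 or the untreated PC3 list of replicate 3 (adjusted p up to 0.0559; over all settings from 0.0017 to 0.233).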

How the results depend on the processing

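Counts are given as members higher and lower. Shares of all genes under the other settings are not given, so the counts in this section are not set against all genes. Without scaling they were 2 and 0 in MDA-MB-231 at day 1, 0 and 1 for MDA-MB-231 day 10 against day 1, 3 and 0 for day 1 of PC3, 9 and 2 for its day 10, 2 and 0 for PC3 day 10 against day 1, and 0 and 0 for both differences between the lines. Median-of-ratios scaling gave 3 and 1 for day 1 of MDA-MB-231, 6 and 1 for its day 10, 1 and 0 between its times, 1 and 2 for day 1 of PC3, 9 and 2 for its day 10, and 3 and 0 between its times. A pseudocount of 100 bp gave 1 and 0 for MDA-MB-231 day 10 against day 1 and 1 and 4 in PC3 at day 1. One of 2000 bp gave 1 and 5 in MDA-MB-231 at day 1, 2 and 1 between its times and 3 and 0 between those of PC3. No filter gave 3 and 1 for PC3 day 10 against day 1. The 50000 peaks of highest area gave 2 and 1, 2 and 1, and 0 and 0 in MDA-MB-231 (day 1, day 10, and day 10 against day 1), 3 and 1, 3 and 5, and 0 and 4 in PC3, and 0 and 0, and 1 and 3 for the differences between lines at days 1 and 10. The upper 50% by area gave 2 and 1 in MDA-MB-231 at day 10, 0 and 0 between its times, 2 and 0, 5 and 4, and 0 and 1 in PC3, and 2 and 0, and 4 and 0 for the differences between lines. The gene body alone gave 4 and 1 in MDA-MB-231 at day 10, 2 and 1 between its times, 1 and 2 in PC3 at day 1, 0 and 1 between its times, and 1 and 1, and 2 and 6 for the differences. With 2 kb on each side the counts were 2 and 4 in MDA-MB-231 at day 1, 1 and 1 between its times, 2 and 3 in PC3 at day 1, and 1 and 1, and 2 and 4 for the differences. Fitting only the groups compared gave 1 and 5, 3 and 4, and 0 and 0 in MDA-MB-231, and 0 and 0, 1 and 6, and 1 and 0 in PC3. The cause of these shifts was not tested.

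With the replicate block the counts were 1 and 4 in MDA-MB-231 at day 1 (BST2 added), 3 and 5 at day 10 (IFI44L, ISG15 and SP110 added), 1 and 5 for day 1 of PC3 (OAS2 and ISG15 added), 4 and 11 for its day 10 (OAS1 and STAT2 lost, IFI44L and IFIT5 added) and 1 and 4 for the difference at day 10 (SAMD9 and OASL added). The block changed no other call.

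For gene-end peaks gained and lost, the 50000 peaks of highest area gave 1 and 0 in MDA-MB-231 at each time, 1 and 2 in PC3 at day 10 and 4 and 6 between the untreated lines. The upper 50% gave 1 and 0 at each time in MDA-MB-231, 1 and 0 in PC3 at day 10 and 4 and 4 between lines. Promoter peaks gained were 2 for day 1 of MDA-MB-231 under both of these cuts, and between the untreated lines 5 were gained under both and 6 and 4 lost. A gene-end window of 500 bp gave 1 and 0 in MDA-MB-231 at day 10. For regions, the 50000 peaks gave 4 and 3 in MDA-MB-231 at day 10, and 2 and 1, and 2 and 5 in PC3.

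Leaving out each list in turn gave from 1 to 3 members higher and 1 to 4 lower in MDA-MB-231 at day 1, 2 to 5 and 2 to 4 at day 10, and 0 to 2 and 0 to 1 between its times. In PC3 it gave 0 to 1 and 1 to 4 at day 1, 3 to 7 and 5 to 9 at day 10, and 1 to 3 and 0 to 1 between times, and 0 to 1 higher for each difference between lines. Gene ends gained in PC3 ranged from 0 to 1 at each time and those lost at day 1 from 0 to 1. Regions gained ranged from 9 to 15 in MDA-MB-231 and from 1 to 10 in PC3 at day 1. Regions lost ranged from 2 to 4 in MDA-MB-231 at each time and from 0 to 1 and 1 to 5 in PC3. Of the values with a list left out, 975 stayed past the threshold, 141 did not and 0 turned sign.

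Signs turned for HERC6 in MDA-MB-231 at day 10 (-0.03, upper 50%), and in PC3 at day 1 for IFIH1 (0.05, 50000 peaks) and PARP9 (0.02, no scaling). In PC3 at day 10 they turned for HERC6 (-0.20 in the body alone, -0.22 with 2 kb), DDX60 (0.02, 50000 peaks), RIGI (0.32, 50000 peaks; 0.05, upper 50%), IFIT2 (-0.24, body alone), OAS1 (-0.07, 50000 peaks) and IFI35 (0.03, no scaling; 0.21 with 2 kb). For PC3 day 10 against day 1 they turned for IFI44 (-0.01) and IFIT2 (-0.02) in the body alone and SAMD9L (0.04, 50000 peaks), and between untreated lines for MX2 (-0.34, 50000 peaks; -0.33, upper 50%).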
